A study of Rattus norvegicus with 12 samples.

Results

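The intermediate filament and lamin genes are the genes of the fibrous scaffolds that run through the cytoplasm and line the inside of the nuclear envelope. Members were the 10 genes Vim, Des, Nes, Synm, Plec, Lmna, Lmnb1, Krt8, Krt18 and Krt19, found as every probe set whose only gene symbol in the platform annotation was that gene. All 10 were on the array, with 15 probe sets among the 31042 tested, and 10 of the 14217 genes that had a probe set of their own. Synm and Lmnb1 had 3 probe sets each, Lmna had 2 and the other genes had 1.

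The study followed rat fibroblasts deprived of attachment and asked which transcripts differ after 16 h in suspension. F111, an established fibroblast line of the Fischer rat, was either plated on plastic for 16 h, which gave A16 cells, or kept in suspension over agarose for the same time, which gave NA16 cells. Both states had the same serum-containing medium and carried no other treatment or transgene. NA16 RNA came from a population in which many cells had lost viability, by the study's own viability assay, so the state joins loss of adhesion with survival of it. F111 is aneuploid and mixed in karyotype, and it stands for 1 line only. Total RNA was hybridised to Affymetrix rat arrays, on which each probe set reports the brightness of a transcript. There were 3 arrays per state, named biological replicate 1, biological replicate 2 and technical replicate 2.

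Intermediate filaments are rope-like polymers that give a cell resistance to strain, and their proteins fall into types by sequence. Type I and type II keratins assemble only as mixed pairs of the 2 types and are known from epithelia, whereas type III proteins such as vimentin and desmin can assemble on their own and mark mesenchymal and muscle cells. The type IV proteins nestin and synemin build into type III filaments, plectin links filaments to each other and to adhesion sites, and the lamins, of type V, form the lamina under the inner nuclear membrane.

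All values below are log2 RMA signals, and a change is the NA16 mean minus the A16 mean. Technical replicate 2 was first averaged with biological replicate 1 of its state, so that each mean ± SD had n = 2. A probe set was called at an adjusted p below 0.05 by limma. Array medians lay between 7.25 and 7.30, the lowest value on any array was 4.0 and the highest was 15.02, which gives the scale on which a probe set is dim or bright. Technical replicate 2 of A16 correlated best with biological replicate 1 (r = 0.9970 over all probe sets, against 0.9912 with biological replicate 2), but technical replicate 2 of NA16 correlated best with biological replicate 2 (0.9970, against 0.9929 with biological replicate 1). Where the call of a named gene was seen to be lost with this array instead placed by likeness, that value is given as well. The calls of Macf1, Banf1, Lemd3, Syne2, Myh3 and Myh11 were not checked in this way, nor under the other alternatives. In bulk RNA, fewer cells of a type and less RNA per cell cannot be told apart.

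Of the 15 member probe sets, 4 were called higher in NA16 cells, 3 were called lower and 8 were not called. The called share was 46.7%, against 27.5% of all probe sets (14.3% higher and 13.2% lower). Called probe sets belonged to 5 of the 10 member genes, while 35.4% of all genes were called on their brightest probe set. Des, Krt8, Nes and Synm each had a probe set that rose, and all 3 probe sets of Lmnb1 fell. A change of at least 2-fold as well was met by 2 higher probe sets, those of Des and Krt8, and by the 3 lower ones of Lmnb1, while 5.37% and 4.86% of all probe sets passed this in the higher and lower direction. The A16 and NA16 arrays did not overlap in 9 member probe sets, 4 higher and 5 lower, against 44.3% of all probe sets (21.2% higher and 23.1% lower). The median change of the members was -0.05 and that of all probe sets was -0.02, so the members spread to both sides and did not shift as a group.

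**Figure D1:**
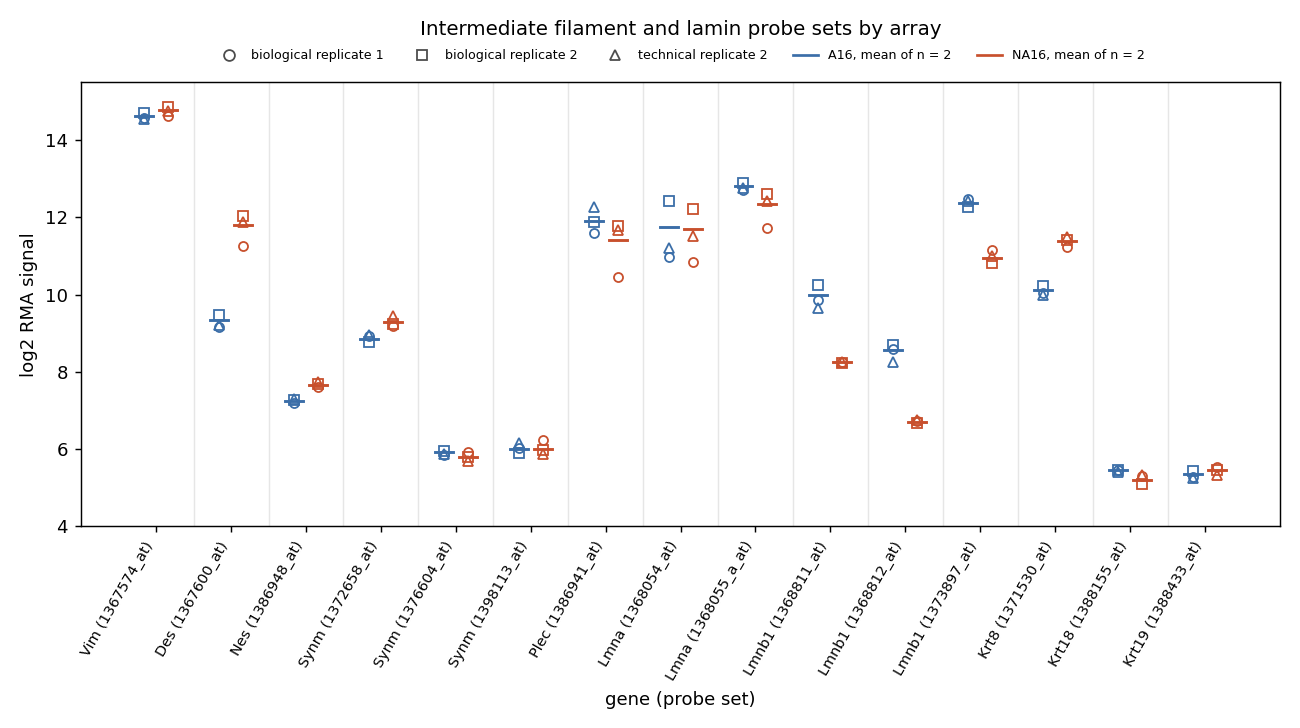
Log2 RMA signal of each of the 15 member probe sets on each of the 6 arrays, with blue for A16, orange for NA16, a symbol for each array and a bar for the mean of n = 2 replicates per state. The NA16 arrays sit above all A16 arrays for Des, Nes, Synm 1372658_at and Krt8. They sit below them for Lmnb1 and, although not called, for Lmna 1368055_a_at and Krt18. Vim lies near the top of the scale and Krt18 and Krt19 lie near its floor in both states.

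The stretches of DNA in front of the vimentin and desmin genes are shown because these type III genes behaved differently here, and those of Krt8 and Krt18 because their proteins are obligate partners. Each window holds the 250 bases before the start of the gene, 5′ to 3′ on the gene's strand, from RefSeq on the GRCr8 assembly. Capitals mark E-boxes (CANNTG, bound by basic helix-loop-helix factors) and GC boxes (GGGCGG or its reverse complement, bound by Sp1-type factors). The windows are chr17:81577011-81577260 on the plus strand for Vim, chr9:84299376-84299625 on the plus strand for Des, chr7:135010340-135010589 on the minus strand for Krt8 and chr7:135035918-135036167 on the plus strand for Krt18.
Vim: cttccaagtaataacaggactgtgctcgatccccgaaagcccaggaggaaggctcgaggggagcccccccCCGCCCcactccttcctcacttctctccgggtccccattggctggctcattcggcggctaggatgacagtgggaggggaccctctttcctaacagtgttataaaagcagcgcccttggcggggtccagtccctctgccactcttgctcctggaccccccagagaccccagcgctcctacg
Des: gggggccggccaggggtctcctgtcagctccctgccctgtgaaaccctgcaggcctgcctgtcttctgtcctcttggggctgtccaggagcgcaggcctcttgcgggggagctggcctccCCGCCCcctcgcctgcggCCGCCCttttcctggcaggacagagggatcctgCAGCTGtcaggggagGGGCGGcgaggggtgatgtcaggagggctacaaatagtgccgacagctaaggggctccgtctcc
Krt8: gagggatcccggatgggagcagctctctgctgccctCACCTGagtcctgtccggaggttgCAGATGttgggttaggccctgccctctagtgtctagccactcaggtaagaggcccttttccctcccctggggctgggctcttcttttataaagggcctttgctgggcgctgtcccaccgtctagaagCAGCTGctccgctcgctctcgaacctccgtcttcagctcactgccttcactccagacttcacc
Krt18: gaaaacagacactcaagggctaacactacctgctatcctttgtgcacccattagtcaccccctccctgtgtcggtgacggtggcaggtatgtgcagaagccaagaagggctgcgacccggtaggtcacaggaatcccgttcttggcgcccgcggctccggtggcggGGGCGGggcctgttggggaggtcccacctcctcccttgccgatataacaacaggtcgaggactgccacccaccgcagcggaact
The Des window held 3 GC boxes and 1 E-box, CAGCTG, and the Vim window held 1 GC box and no E-box. Krt8 had 3 E-boxes and no GC box, and Krt18 had 1 GC box and no E-box. Krt8 and Krt18 lie on chromosome 7 with 0 protein-coding genes listed between them. RefSeq windows were matched for 8 of the 10 members. Among these 8, E-boxes were in 3 (Des, Lmnb1 and Krt8) and GC boxes in 5 (Vim, Des, Nes, Lmna and Krt18), against 65.5% and 30.5% of all 33469 windows of this length. The hypoxia factor core (ACGTG or GCGTG, either strand) was in 3 members, Nes, Synm and Lmnb1, against 36.7% of windows. In Lmnb1 it had 3 matches over both strands, 2 of them the same palindromic E-box CACGTG read on each strand. The AP-1 site (TGANTCA) and the CArG box were in 0 of the 8 windows and in 6.34% and 1.5% of all windows. These are matches of letters, and whether any factor bound there was not tested.

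Desmin, the type III filament protein of muscle cells, rose more than any other member. The Des probe set read 9.16, 9.47 and 9.22 on the A16 arrays of biological replicate 1, biological replicate 2 and technical replicate 2, and 11.27, 12.04 and 11.87 on the NA16 arrays in the same order. Every NA16 array lay well above every A16 array, and biological replicate 1 was the lowest array of both states. The mean moved from 9.33 ± 0.20 to 11.81 ± 0.33 (SD, n = 2), a change of 2.48 (SE 0.19, 95% confidence interval 2.01 to 2.94, limma adjusted p = 0.000715). Desmin was already above the array median in adherent cells. PLIER columns of the same arrays gave 2.48.

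Vimentin, the type III protein that marks fibroblasts, was among the brightest signals on the arrays in both states. The Vim probe set read 14.58, 14.70 and 14.54 on the A16 arrays and 14.63, 14.85 and 14.76 on the NA16 arrays. The states overlapped. The change was 0.14 (SE 0.12, interval -0.15 to 0.43, adjusted p = 0.484), so a rise beyond 0.43 or a fall beyond 0.15 lay outside the interval. The brightest probe set on each array read between 14.91 and 15.02, which leaves little room above Vim on this scale, and whether the signal was limited there was not tested. The intervals of the changes of Des and Vim, the 2 type III members, did not overlap.

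Nestin, a type IV protein known from progenitor cells, rose by a small amount. The Nes probe set read 7.19, 7.27 and 7.29 on the A16 arrays and 7.60, 7.68 and 7.73 on the NA16 arrays, so the states did not overlap but all arrays lay close to the array median. The change was 0.42 (SE 0.10, interval 0.17 to 0.66, adjusted p = 0.0280), a 1.34-fold rise. This call was lost when technical replicate 2 was placed by likeness (0.40, adjusted p = 0.0629) and when any replicate was left out (adjusted p up to 0.157), and was kept in 11 of 17 alternatives of the same test.

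Synemin, a large type IV protein that ties desmin and vimentin filaments to adhesion complexes, rose on 1 of its 3 probe sets. Probe set 1372658_at read 8.92, 8.77 and 8.94 on the A16 arrays and 9.19, 9.24 and 9.45 on the NA16 arrays, without overlap. Its change was 0.43 (SE 0.11, interval 0.15 to 0.71, adjusted p = 0.0377), and the call was kept in 5 of 17 alternatives. It was lost when technical replicate 2 was placed by likeness (0.42, adjusted p = 0.0761) and with PLIER (0.48, adjusted p = 0.0583). The other 2 probe sets were dim, between 5.69 and 6.23 on all arrays, and overlapped between states, with changes of -0.11 for 1376604_at (adjusted p = 0.533) and 0.02 for 1398113_at (adjusted p = 0.940). The rise of Synm therefore rests on the 1 probe set that was above the array median. The mean of its probe sets changed by 0.11 and was not called (limma adjusted p = 0.485).

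Plectin, the cytolinker that joins intermediate filaments to hemidesmosomes, focal adhesions and the nuclear envelope, had a bright signal and did not pass the test. The Plec probe set read 11.61, 11.88 and 12.28 on the A16 arrays and 10.45, 11.77 and 11.66 on the NA16 arrays. NA16 biological replicate 1 lay apart from the other 5 arrays, and the remaining NA16 arrays fell within the A16 range. The change was -0.50 (SE 0.23, interval -1.08 to 0.08, adjusted p = 0.20). Without NA16 replicate 2 it was -0.86 with an adjusted p of 0.0170, and without NA16 replicate 1 it was -0.14, so 1 replicate sets its size.

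Lamin B1, the farnesylated lamin that stays attached to the inner nuclear membrane, fell on all 3 of its probe sets. Probe set 1368811_at read 9.86, 10.24 and 9.66 on the A16 arrays and 8.26, 8.23 and 8.27 on the NA16 arrays. Probe set 1368812_at read 8.59, 8.69 and 8.24 against 6.73, 6.68 and 6.74, and 1373897_at read 12.47, 12.27 and 12.42 against 11.16, 10.82 and 10.99. No NA16 array reached the lowest A16 array on any of them. Probe set 1368811_at fell by 1.75 (SE 0.17, adjusted p = 0.00143), 1368812_at fell by 1.84 (SE 0.13, adjusted p = 0.000603) and 1373897_at fell by 1.41 (SE 0.13, adjusted p = 0.00128). These are 3.37-fold, 3.59-fold and 2.66-fold lower levels, and PLIER gave falls of the same order, of which the largest was -2.24. On 1368811_at and 1368812_at the NA16 arrays lay closer to each other than the A16 arrays did.

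Lamins A and C, the splice products of Lmna that make up the A-type lamina, were not called. Probe set 1368055_a_at read 12.70, 12.90 and 12.75 on the A16 arrays and 11.73, 12.60 and 12.41 on the NA16 arrays. The states did not overlap, but NA16 biological replicate 1 lay far below the other NA16 arrays, and the change was -0.48 (SE 0.19, interval -0.95 to -0.00, adjusted p = 0.137). Probe set 1368054_at read 10.97, 12.41 and 11.21 against 10.83, 12.22 and 11.52. Here biological replicate 2 was the highest array of both states, 1.45 above biological replicate 1 in A16 and 1.39 above it in NA16, and the change was -0.05 (SE 0.51, interval -1.31 to 1.20, adjusted p = 0.964). This interval is too wide to speak for or against a change of 2-fold. The middle hexokinase control probe set varied in the same way, from 8.50 to 9.36 over the A16 arrays and from 8.77 to 9.66 over the NA16 arrays with biological replicate 2 highest in both, and its part in the Lmna spread was not tested. The interval of the change of 1368055_a_at lay above those of all 3 Lmnb1 probe sets.

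**Figure D2:**
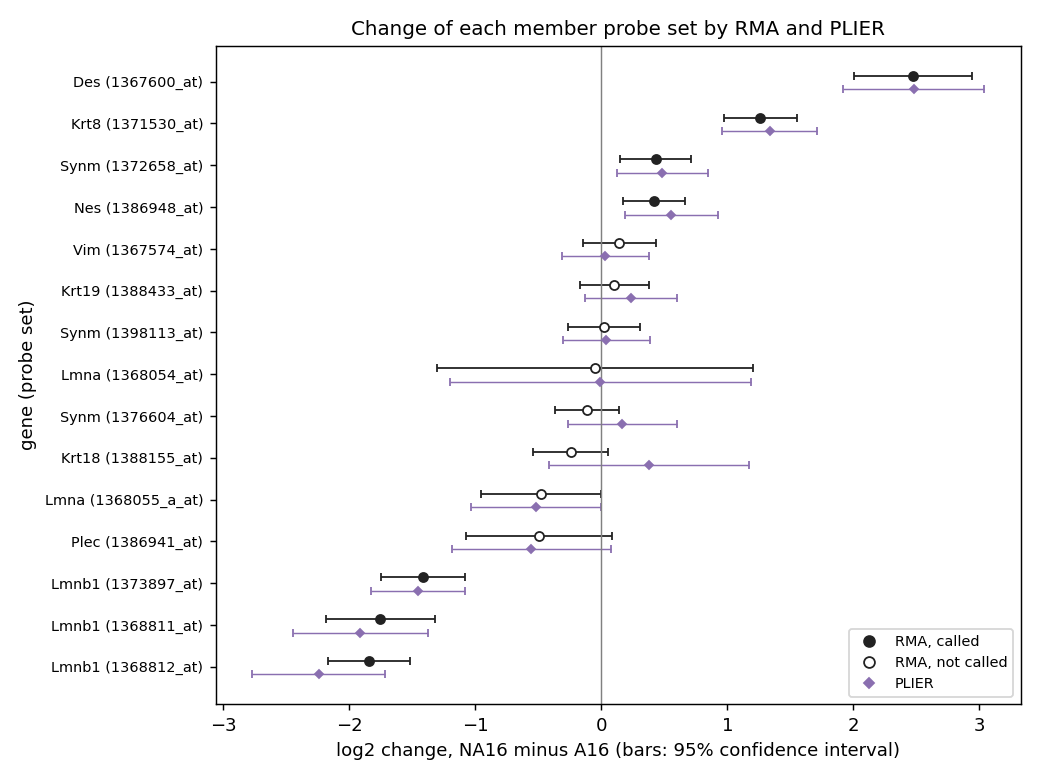
Log2 change, NA16 minus A16, of each member probe set with its 95% confidence interval, from the RMA columns (circles, filled where called) and the PLIER columns (diamonds) of the same 6 arrays. Des and Krt8 lie to the right and the 3 Lmnb1 probe sets to the left with both algorithms, and Lmna 1368054_at has the widest interval, from -1.31 to 1.20.

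Keratin 8, the type II keratin of simple epithelia, was the other member with a large rise. The Krt8 probe set read 10.04, 10.23 and 10.00 on the A16 arrays and 11.23, 11.41 and 11.49 on the NA16 arrays, and the states lay far apart compared with the spread within them. The mean moved from 10.12 ± 0.15 to 11.38 ± 0.03 (SD, n = 2), a change of 1.26 (SE 0.12, interval 0.97 to 1.55, adjusted p = 0.00121). The probe set was above the array median on every array, adherent cells included.

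Keratin 18, the usual type I partner of keratin 8, did not follow it. The Krt18 probe set read 5.46, 5.46 and 5.39 on the A16 arrays and 5.30, 5.09 and 5.33 on the NA16 arrays. The states did not overlap, but all values lay in the dim range, below the array median. The change was -0.24 (SE 0.12, interval -0.54 to 0.06, adjusted p = 0.224). PLIER columns gave 0.38 in the other direction, so no sign can be given. Keratin 19, another type I keratin of simple epithelia, read 5.28, 5.43 and 5.26 against 5.54, 5.47 and 5.34, with overlap, and changed by 0.10 (interval -0.17 to 0.38, adjusted p = 0.609). Both probe sets were near the floor of the array, and whether these probe sets detect their transcripts in F111 cells was not tested.

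The remaining filament genes were described by the brightest probe set of each gene, for which 35.4% of all genes were called (20.0% higher and 15.4% lower) with a median change of 0.01. Of 16 other keratins measured, 0 were called higher and 1 was called lower, and 12 lay below the array median on all 6 arrays. The lower one was Krt7, a type II keratin of simple and glandular epithelia, which read 11.68, 11.80 and 11.75 on the A16 arrays and 9.61, 9.75 and 9.69 on the NA16 arrays and fell by 2.06 (adjusted p = 0.000387). Krt7 and Krt8, both type II, thus moved in opposite directions. Of the type I keratins, Krt17, Krt20 and Krt10, chosen after their values were seen, gave 7.10, 7.39 and 6.95 in A16 and 7.13, 7.54 and 6.62 in NA16, and none was called. A list of 9 other filament genes held type III and type IV genes and the eye lens genes Bfsp1 and Bfsp2, which are usually classed apart. Only Bfsp2 was called, with a fall of 0.83 (limma adjusted p = 0.0296) at a level below the array median. On all arrays 7 of the 9 were below the median. The Bfsp2 call was lost with PLIER (-0.43, adjusted p = 0.142), with technical replicate 2 placed by likeness (-0.71, adjusted p = 0.0619), without A16 replicate 1 (adjusted p = 0.0901) and without NA16 replicate 2 (adjusted p = 0.118). Of the 2 bright genes, both chosen after their values were seen, neurofilament heavy chain Nefh stood at 11.42 and 11.43 and the desmin partner syncoilin Sync at 11.72 and 11.38, and neither was called.

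Of 18 genes of plakins, filament linkers and desmosomes, 6 were called higher and 3 lower, with a median change of 0.11. Dsc2, the desmosomal cadherin desmocollin 2, rose by 1.90 from a mean of 4.49 near the floor. Plakophilin 2, encoded by Pkp2, a plaque protein that recruits desmoplakin, fell by 1.86, from 8.79 to 6.94. Plakoglobin, encoded by Jup, rose by 1.21 (adjusted p = 0.00929), a call that was lost when technical replicate 2 was placed by likeness (0.95, adjusted p = 0.115). Desmoplakin itself (Dsp), which anchors keratins and desmin to desmosomes, was dim and read 6.70 in A16 and 6.65 in NA16 cells. Macf1, a plakin that joins actin and microtubules, fell by 0.96, and dystonin (Dst) showed 0.01 on its brightest probe set and -0.69 to -0.16 on the others. Dsp, Macf1 and Dst were named after their values were seen.

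Muscle costamere genes and other muscle partners of desmin and synemin had 4 of 11 measured genes called higher and 0 called lower. The median change was 0.55. Only some of these genes encode proteins that tie desmin and synemin filaments to the cell membrane. Beta-sarcoglycan, encoded by Sgcb, read 8.80, 8.73 and 8.74 on the A16 arrays and 10.88, 10.62 and 10.69 on the NA16 arrays, and rose by 1.95 (adjusted p = 0.000414). Its other probe sets gave changes between 1.99 and 2.36. Dystrobrevin alpha, encoded by Dtna, rose by 1.48 on its brightest probe set and changed by 0.01 to 0.29 on the others. Dystrophin, encoded by Dmd, rose by 0.79 (adjusted p = 0.00502), and utrophin (Utrn), named after its value was seen, gave 0.73 with an adjusted p of 0.0676 on its brightest probe set and smaller changes, up to 0.22, on the others.

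Markers of muscle were set beside desmin and synemin. The muscle regulators Myod1 and Myf6 read 4.83 and 4.64 in A16 and 4.91 and 4.69 in NA16 cells, near the floor. Another muscle regulator, Myog, named after its value was seen, read 7.12 and 7.21, close to the array median, and was not called. Creatine kinase Ckm read 6.03 and 5.97. Of 17 muscle markers measured, 2 were called higher and 3 lower, and 10 lay below the array median on all arrays. Smtn, a smooth muscle cytoskeletal protein, fell by 1.85, Tnnc1, the slow troponin C, fell by 1.00, and Myh1, a myosin heavy chain of a multigene family, fell by 1.04 on its brightest probe set with -0.49 to 0.03 on the others. The Myh1 call was lost with technical replicate 2 placed by likeness (-0.83, adjusted p = 0.0718). The 2 called higher, as Des was, were the myosin heavy chains Myh11 (0.68, with 0.15 on its other probe set) and Myh3 (0.43), named after their values were seen. The median change of the list was 0.01. Its summed intensity was 11776 to 13320 in A16 and 6202 to 7440 in NA16 arrays, a fall in which Smtn, Tnnc1 and Myh1, the bright members, weigh most.

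Epithelial markers were set beside Krt8. The list had 10 measured genes, of which 2 were called higher, 1 was called lower and 7 lay below the array median on all arrays. In A16 and NA16 cells E-cadherin (Cdh1) read 5.21 and 5.30, and the splicing regulator Esrp1 read 6.16 and 6.17. Both lay below the array median on all arrays, and Cdh1 was the dimmer. Elf3, an epithelial transcription factor, rose by 1.97 from 6.52 to 8.48, Epcam, an epithelial adhesion molecule, rose by 0.54 at a level below the array median, and Sfn fell by 0.42 (limma adjusted p = 0.0466, or 0.0683 with technical replicate 2 placed by likeness). The Epcam and Sfn calls were kept in 13 and 10 of 17 alternatives. That of Epcam was lost without technical replicate 2 (0.59, limma adjusted p = 0.0657). Named after their values were seen, occludin (Ocln) changed by 0.32 on its brightest probe set and by 1.04 on its other. The claudins Cldn1 and Cldn4 changed by -0.13 each on their brightest probe sets, and none of these was called there. The median change of the list was 0.09. Its summed intensity was 836 to 920 in A16 and 1126 to 1190 in NA16 arrays, a rise that was mostly that of Elf3, and its part in the Krt8 result was not tested.

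Neural markers were set beside Nes. Sox2, Pax6 and Sox1, factors of neural progenitors, gave 7.52, 4.92 and 5.59 in A16 and 7.54, 4.98 and 5.56 in NA16, and none was called. Of 9 measured, 2 were called higher and 1 lower. Map2 rose by 1.16 on its brightest probe set with 0.58 on the other, and Dcx, a microtubule protein of young neurons, fell by 2.45 on its brightest probe set with -0.75 on the other. S100b rose by 0.56 (adjusted p = 0.0332, or 0.0790 with technical replicate 2 placed by likeness). The summed intensity of the neural list was 2696 to 2993 in A16 and 3522 to 3787 in NA16 arrays, and its part in the Nes result was not tested. Fibroblast collagens were bright in both states, with Col1a1 at 14.60 and 14.28 and Col1a2 at 14.52 and 14.29. Of 14 fibroblast markers 5 were called higher, among them Pdgfrb (1.40 on its brightest probe set, 0.16 and 0.19 on the others), Lum (1.15) and Pdgfra (0.78), and 0 were called lower. The leukocyte marker Ptprc was dim, at 5.82 and 5.68, among 9 macrophage markers of which Cd68 (1.46) and Lyz2 (1.15) were called higher. Cd14 of the same list, named after its value was seen, was bright, at 10.52 in A16 and 10.17 in NA16. It was lower on every NA16 array but was not called (limma adjusted p = 0.0882). Of 7 endothelial markers Pecam1 rose by 0.48, below the array median on all arrays, and Egfl7 fell by 0.37. The Pecam1 call was kept in 12 of 17 alternatives and was lost without technical replicate 2 (0.37, limma adjusted p = 0.137). The Egfl7 call (adjusted p = 0.0498) was kept in 6 of 17 alternatives and was lost with technical replicate 2 placed by likeness (adjusted p = 0.0754), with PLIER (adjusted p = 0.0637) and without any 1 replicate.

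**Figure D3:**
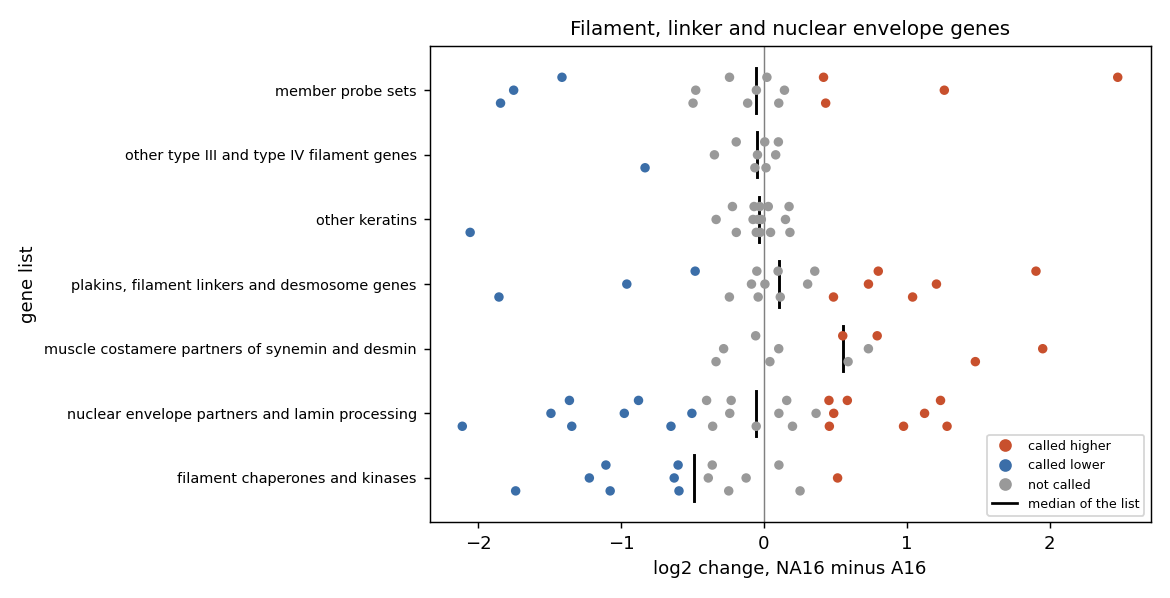
Log2 change, NA16 minus A16, of the member probe sets and of the brightest probe set of each gene in 6 lists of filament, linker and nuclear envelope genes, with orange for called higher, blue for called lower, grey for not called and a black bar for the median of the list. The other keratins, and the list of type III and IV genes that also holds the lens genes Bfsp1 and Bfsp2, cluster around 0 apart from Krt7 and Bfsp2. Costamere genes have a median of 0.55, and chaperones and kinases have a median of -0.49.

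The nuclear envelope had called genes on both sides. Of 25 genes of lamina partners and lamin processing, 8 were called higher and 8 lower, and the median was -0.05. Lmnb2, the gene of the second B-type lamin, read 10.36, 10.61 and 10.47 on the A16 arrays and 8.03, 8.61 and 8.34 on the NA16 arrays and fell by 2.11 (adjusted p = 0.000808). The lamin B receptor (Lbr), which tethers B-type lamins and heterochromatin, fell by 1.36 (adjusted p = 0.00215), and nurim (Nrm), an inner membrane protein, fell by 1.49 on its brightest probe set and by 0.53 on the other. Both B-type lamin genes and the receptor for their proteins were thus lower in NA16 cells on all arrays.

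The other envelope genes named here were chosen after their values were seen. Tmpo, which encodes the lamina-associated polypeptide 2 proteins, fell by 1.35, Banf1, which encodes a chromatin bridging factor, fell by 0.98, and Lemd3, an inner membrane protein, fell by 0.88 on its brightest probe set with -0.25 to 0.02 on the others. Emerin (Emd), a partner of A-type lamins, read 10.12 and 10.07 and was not called. The inner membrane proteins Sun1 and Sun2, which connect the lamina to the cytoskeleton, rose by 0.98 and 1.28, and nesprin 2 (Syne2), which spans to cytoplasmic filaments, rose by 0.49. The other nesprins of the list, Syne1 and Syne3, went the other way, by -0.40 and -0.24 on their brightest probe sets. They were lower on every NA16 array but were not called. The call of Sun2 was lost when technical replicate 2 was placed by likeness (1.05, adjusted p = 0.0620). In lamin processing, Fntb, the beta subunit of the farnesyltransferase, rose by 1.12, and Zmpste24, the protease that matures prelamin A, fell by 0.65, and its adjusted p rose to 0.0547 without NA16 replicate 1.

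**Figure D4:**
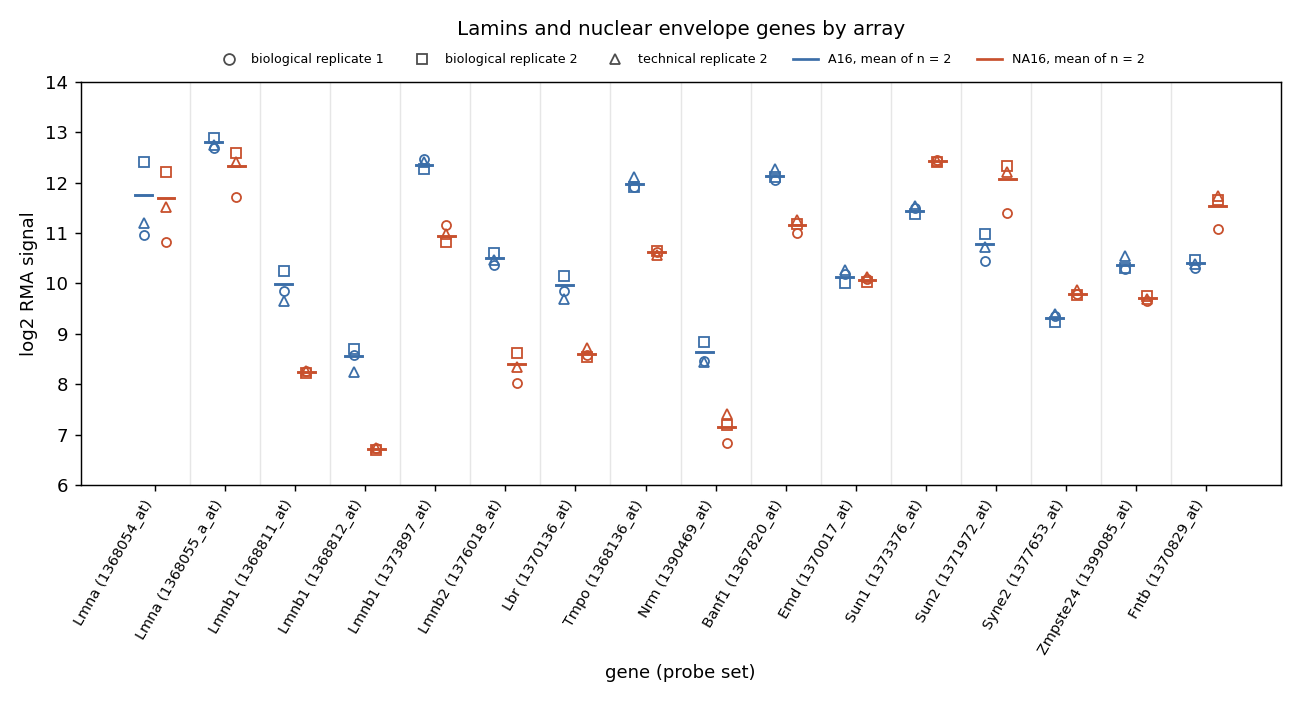
Log2 RMA signal on each of the 6 arrays for the Lmna and Lmnb1 probe sets and for 11 nuclear envelope genes, with colours, symbols and bars as for the member probe sets. Lmnb1, Lmnb2, Lbr, Tmpo, Nrm, Banf1 and Zmpste24 lie lower on every NA16 array, Sun1, Sun2, Syne2 and Fntb lie higher, and the 2 Lmna probe sets show the wide spread between replicates.

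Chaperones and kinases that act on filaments and lamins had 1 of 14 genes called higher and 7 lower, with a median of -0.49. Cdk1 and Plk1, mitotic kinases of which the first phosphorylates lamins when the envelope breaks down, fell by 1.11 and 1.22, and Pak1, a kinase of vimentin and desmin, fell by 1.74. Cryab, the small heat shock protein that chaperones desmin, fell by 1.08 (adjusted p = 0.00129), opposite in direction to Des, and was named after its value was seen.

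The control probe sets for transcript ends differed by state for 1 of 3 genes. The 3′ minus 5′ difference of beta-actin was 0.37 to 0.44 on A16 and 0.87 to 0.93 on NA16 arrays. For Gapdh it was -0.07 to 0.00 on A16 and -0.03 to 0.06 on NA16 arrays, and for hexokinase 0.76 to 0.97 and 0.77 to 0.80. The middle beta-actin probe set was itself lower in NA16, at 14.33 to 14.59 on A16 and 13.24 to 13.59 on NA16 arrays. That of Gapdh was higher, at 14.46 to 14.58 and 14.74 to 14.82. The difference between the ends of beta-actin moved with every called member, and its part in those results was not tested.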

How the data were processed

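RNA of A16 and NA16 F111 cells was measured on 6 arrays. The authors normalized the scans in Avadis by RMA and by PLIER, and the 12 columns were deposited as normalized intensity on a linear scale. Log2 of the RMA intensity was taken, and PLIER columns served as an alternative. The 57 control probe sets were left out of the fit. Technical replicate 2 was averaged with biological replicate 1, as the labels point to, which gave 2 replicates per state. The study states that the arrays were repeated both biologically and technically. Whether biological repeats were separate cultures is not stated there, and p-values then reflect only how far these samples varied, possibly for technical reasons. The comparison used limma 3.58.1 (lmFit, then eBayes) under R 4.3.3 over 31042 probe sets, with Benjamini-Hochberg adjustment (2 residual and 3.75 prior degrees of freedom), and the script was tested on simulated data. Tables were made in Python 3.11.15.

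Members and the 12 gene lists (183 genes, 159 measured) were chosen with earlier results of these data known. Named by rule were all members, up to 3 called genes per list by size of change with arrays that did not overlap, and defining markers. A single symbol was listed for 20826 probe sets, several for 436 and none here for 9780. All 15 member probe sets matched the RefSeq gene table by Entrez identifier. Detection calls were not used, and the lowest intensity was 16.1 for RMA and 16.0 for PLIER, so fold changes of dim genes are understated if a constant was added. Precision is limited by the number of arrays.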

Additional observations from a re-analysis of the deposited data

How the results depend on the processing

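Des, Krt8 and the 3 Lmnb1 probe sets were called in the same direction under every alternative that tested them except the methods' t-test. That test called 0 members higher and 0 lower after Benjamini-Hochberg, and likewise 0 and 0 of all probe sets and 0 and 0 of the listed genes; at an unadjusted p below 0.05 it passed 8023 probe sets, 7 of them members, and 2843 of these, 5 of them members, also changed over 2-fold. With the brightest probe set or the mean of the probe sets for each gene, 1 member was called lower, because 3 Lmnb1 probe sets became 1, and 2399 genes were lower with the brightest and 2890 higher and 2442 lower with the mean. Placing technical replicate 2 by likeness, an alternative chosen after seeing the data, left 2 members called higher, as did dropping that array, which also left 19 listed genes higher (33 before). Leaving out each replicate in turn gave 2 to 3 members higher, with Nes lost each time, and 3 to 5 lower, 3088 to 3735 and 2786 to 3912 of all probe sets, and 20 to 26 and 19 to 24 listed genes. The lone sample left in a state was assumed to vary like the other state. Without NA16 replicate 2, Lmna 1368055_a_at (-0.74, adjusted p = 0.0325) and Plec were called.

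With a replicate block, 6008 of all probe sets were higher and 5865 lower, with 4 members higher and 4 lower; Lmna 1368055_a_at (-0.48, adjusted p = 0.0133) was the added call. Deviations of equal replicate numbers correlated at 0.535 over all probe sets, but the labels give no shared batch and there are only 2 pairs. Signs turned for dim or variable probe sets that were not called: Synm 1376604_at (0.17) and Krt18 (0.38) with PLIER, Synm 1398113_at with median centring (-0.0088), with every array as its own replicate (-0.0019) and over the fits that left out a replicate (-0.077 to 0.12), and Lmna 1368054_at over those fits (-0.72 to 0.61, positive without A16 replicate 2 or NA16 replicate 1). The cause was not tested. Low signals, below the array median, limit what can be said of Krt18, Krt19 and the dim Synm probe sets.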
